A study of Mus musculus with 4 samples.

Results

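The 10 genes described here encode receptors, bridging ligands and an inhibitory pair of efferocytosis, the uptake of dying cells by phagocytes: Axl, Mertk, Gas6, Mfge8, Stab1, Msr1, Marco, Cd300lf, Sirpa and Cd47. They were taken by name from the 32285 genes counted in the series, by a rule that uses no measured value, and their unique molecular identifiers (UMIs) were summed over the 28429 cells that remained of 53361 barcodes after the study's own filters. The paper states that clusters specific to the second Lyve1CreCsf1rfl/fl tumor, which it identified as lymphocytes, were removed from all samples. Shares of a tumor's cells and levels over all kept cells therefore leave out those cells. The cells were viable CD45+ cells sorted from orthotopic EO771 mammary carcinomas grown to 1.5 cm3 in female C57BL/6 mice. Control mice were Csf1rfl/fl, with Csf1r, the receptor for colony stimulating factor 1, flanked by loxP sites, and the other mice were Lyve1CreCsf1rfl/fl, in which Cre driven by Lyve1 removes Csf1r from cells that express or have expressed Lyve1. Both genotypes carried the floxed alleles and only 1 carried Cre, 2 tumors were sequenced per genotype, and each of 2 Chromium runs held 1 tumor of each genotype, told apart by a hashtag antibody. Lyve1 is also active in lymphatic endothelium, so the promoter does not restrict Cre to macrophages. In the comparisons of genotypes the p-values measure the spread between these 4 tumors. Comparisons between cell types, and of genotype effects between them, fit the tumor as a covariate. Their p-values measure the spread that remains among values of type and tumor, pooled over the types fitted. Types of 1 tumor count there as independent, so a small p-value does not rest on more than these 4 tumors.

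Dying cells expose phosphatidylserine, which phagocytes bind either directly or through soluble bridging proteins. Mertk and Axl are receptor tyrosine kinases that bind phosphatidylserine through Gas6, whereas Mfge8 links it to integrins. Stab1, also known as stabilin-1, and Cd300lf bind phosphatidylserine themselves, and Msr1 and Marco are class A scavenger receptors with a wide range of ligands. Cd47 is carried by most cells and signals through Sirpa on the phagocyte to restrain uptake. Macrophages that clear dying tumor cells use many of these molecules together.

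The 4 tumors gave 4771 to 8699 cells and 27686362 to 56715743 UMIs each, with a median of 3721 to 4657 UMIs per cell. Cells were assigned to 14 types by summed lineage markers, none of them among the 10 genes, and 13 types had at least 20 cells in every tumor. C1q macrophages (C1qa, C1qb, C1qc, Apoe, Adgre1 and Ms4a7) numbered 459 and 268 in the control tumors and 138 and 75 in the Lyve1CreCsf1rfl/fl tumors of runs 1 and 2, or 5.28%, 3.44%, 1.92% and 1.57% of the tumor's kept cells. That gate is a range rather than a sharp border: of the 940 C1q macrophages 59 lay within 25% above it, and 223 other cells lay within 25% below. The control tumor of run 1 stood apart in its cell separation, since 6.82% of its cells had a leading hashtag under 3 times the other, against 0.218% to 1.41% in the other tumors, and 13.9% of its cells carried markers of more than 1 lineage, against 6.42% to 9.39%. Between the runs 60 barcode sequences were shared. The 236 cells gated as stromal and tumor cells were unusual for a CD45 sort, with a median of 46720 UMIs and 42.4% of them called doublets. Csf1r was detected at 1.58 and 2.36 UMIs per 10000 in control and at 1.43 and 1.43 in Lyve1CreCsf1rfl/fl C1q macrophages. The lower level was not particular to that type. Ly6c2 monocytes had 2.37 and 2.31 against 1.42 and 1.34, and Arg1 macrophages 1.87 and 1.86 against 1.29 and 1.44. Neutrophils had 0.953 and 0.729 against 0.389 and 0.570. Tags from the transcript's end do not show whether the floxed part was deleted, and Lyve1 itself gave 3 UMIs in all C1q macrophages and 133 of its 147 UMIs in stromal and tumor cells.

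All levels below are UMIs of a gene per 10000 UMIs of a cell type within 1 tumor, given in the order control run 1, control run 2, Lyve1CreCsf1rfl/fl run 1 and Lyve1CreCsf1rfl/fl run 2. They are compared for 1 gene between cell types and not between genes. Neighbors in a gene's order of cell types were called apart when the ranges over the 4 tumors did not overlap, which was so for 20 of 120 neighboring pairs over the 10 genes.

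Promoters are shown for 4 of the genes with contrasting patterns, Stab1 and Mertk for the macrophages, Cd300lf for neutrophils and Mfge8 for dendritic and stromal cells. RefSeq sequences (GRCm38.p6) of the 250 bases before the start were matched for 8 of the 10 genes. Msr1 and Sirpa had no entry. The letters of 4 motifs were searched on both strands: GAGGAA, the core bound by ETS factors such as PU.1 in myeloid cells, present in 23.3% of all 32851 windows of this length, TGCTGA, part of the site of MAF factors, in 16.1%, TATAAA, the TATA box, in 12.4%, and GGGCGG, the GC box, in 32.7%. Capitals mark GAGGAA and TGCTGA on either strand, and each sequence is written 5′ to 3′ on the gene's own strand.
Stab1, chr14:31168642-31168891, minus strand: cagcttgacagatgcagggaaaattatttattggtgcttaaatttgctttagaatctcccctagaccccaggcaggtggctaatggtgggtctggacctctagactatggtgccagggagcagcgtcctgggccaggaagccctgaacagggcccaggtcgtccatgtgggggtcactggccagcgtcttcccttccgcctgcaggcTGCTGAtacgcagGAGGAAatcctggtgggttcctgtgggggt
Mertk, chr2:128698665-128698914, plus strand: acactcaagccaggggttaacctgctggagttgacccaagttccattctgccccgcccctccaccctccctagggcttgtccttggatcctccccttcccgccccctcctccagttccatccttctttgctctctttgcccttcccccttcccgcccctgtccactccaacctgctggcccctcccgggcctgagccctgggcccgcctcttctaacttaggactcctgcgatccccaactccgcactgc
Cd300lf, chr11:115133993-115134242, minus strand: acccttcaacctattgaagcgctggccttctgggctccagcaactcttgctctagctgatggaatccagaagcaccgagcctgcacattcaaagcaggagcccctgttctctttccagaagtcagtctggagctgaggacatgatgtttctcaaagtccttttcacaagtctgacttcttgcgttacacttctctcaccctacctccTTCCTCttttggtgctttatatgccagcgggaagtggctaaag
Mfge8, chr7:79149061-79149310, minus strand: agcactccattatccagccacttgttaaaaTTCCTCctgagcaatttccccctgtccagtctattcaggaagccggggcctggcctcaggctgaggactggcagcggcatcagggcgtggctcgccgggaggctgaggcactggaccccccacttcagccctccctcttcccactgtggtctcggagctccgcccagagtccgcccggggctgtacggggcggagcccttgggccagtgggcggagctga
In the Stab1 window TGCTGA lay 43 to 38 bases before the start and GAGGAA followed at 30 to 25 bases. The Mertk window held neither, but held 3 GC boxes. Cd300lf, whose window lies within the gene Rab37, had GAGGAA 43 to 38 bases before its start and TATAAA at 28 to 23, both on the strand opposite to the gene. Mfge8 had a single GAGGAA at 220 to 215 bases and 4 GC boxes. These matches describe the letters in the windows only.

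Mertk and Stab1 marked the same pair of macrophage types. Mertk (chr2:128698956-128802894, plus strand) was at 0.243, 0.380, 0.346 and 0.165 UMIs per 10000 in C1q macrophages. In Arg1 macrophages, gated on Arg1, Mmp12, Gpnmb, Spp1, Hmox1 and Cd68, it was at 0.205, 0.390, 0.415 and 0.541. These ranges overlapped each other but no other type reached them, and the next highest, the stromal and tumor cells, averaged 0.0590. Stab1 (chr14:31139013-31168641, minus strand) showed the same arrangement, with 0.269, 0.75, 0.247 and 0.611 in C1q macrophages and 0.283, 0.634, 0.317 and 0.504 in Arg1 macrophages. All 4 tumors had both types above every other type for Stab1, whose highest level elsewhere was 0.0969 in regulatory T cells of 1 tumor.

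Across the 52 values of 13 types in 4 tumors, the log2 levels of Mertk and Stab1 had a Pearson correlation of 0.893, the highest among pairs of the 10 genes, followed by 0.892 for Msr1 and Sirpa. Values of a tumor share its library, and types within a run share its free RNA, so these correlations are descriptions. Among 4730 genes compared in this way, Mmp13 (0.928), Nt5dc2 (0.923) and Pf4 (0.901) were most like Mertk, and Mmp13 (0.912), Mrc1 (0.912) and Lpl (0.900) most like Stab1. Nt5dc2 overlaps Stab1 on the opposite strand, and Mertk overlaps the antisense gene Gm14011. The use of strand in the counting was not given in the sources used here, so reads of such overlapping genes may not have been separated. Within the 940 C1q macrophages, Mertk and Stab1 were detected together in 41 cells, where unrelated detection would place them together in 19.4. Cells with more UMIs detect more genes, and this count was not corrected for depth.

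Axl (chr7:25757273-25788705, minus strand) was spread more widely. C1q macrophages held 0.854, 1.30, 1.35 and 1.08 UMIs per 10000, next to 1.31, 1.66, 1.11 and 1.67 in stromal and tumor cells, and those ranges overlapped. Ly6c2 monocytes followed at 0.700 to 0.886 and Cd209a dendritic cells at 0.577 to 0.978. Mature dendritic cells, which express Ccr7 and Fscn1, kept 0.342 to 0.578, whereas cDC1, the Xcr1 and Clec9a type, had 0.0335 to 0.268. Among lymphocytes the Axl level was highest in regulatory T cells, at 0.307 to 0.408, and these did not overlap the other T cells at 0.206 to 0.269. In C1q macrophages Axl and Mertk were found together in 59 cells, against 52.4 if unrelated, a smaller excess than for Mertk and Stab1 and one given here without a test.

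**Figure D1:**
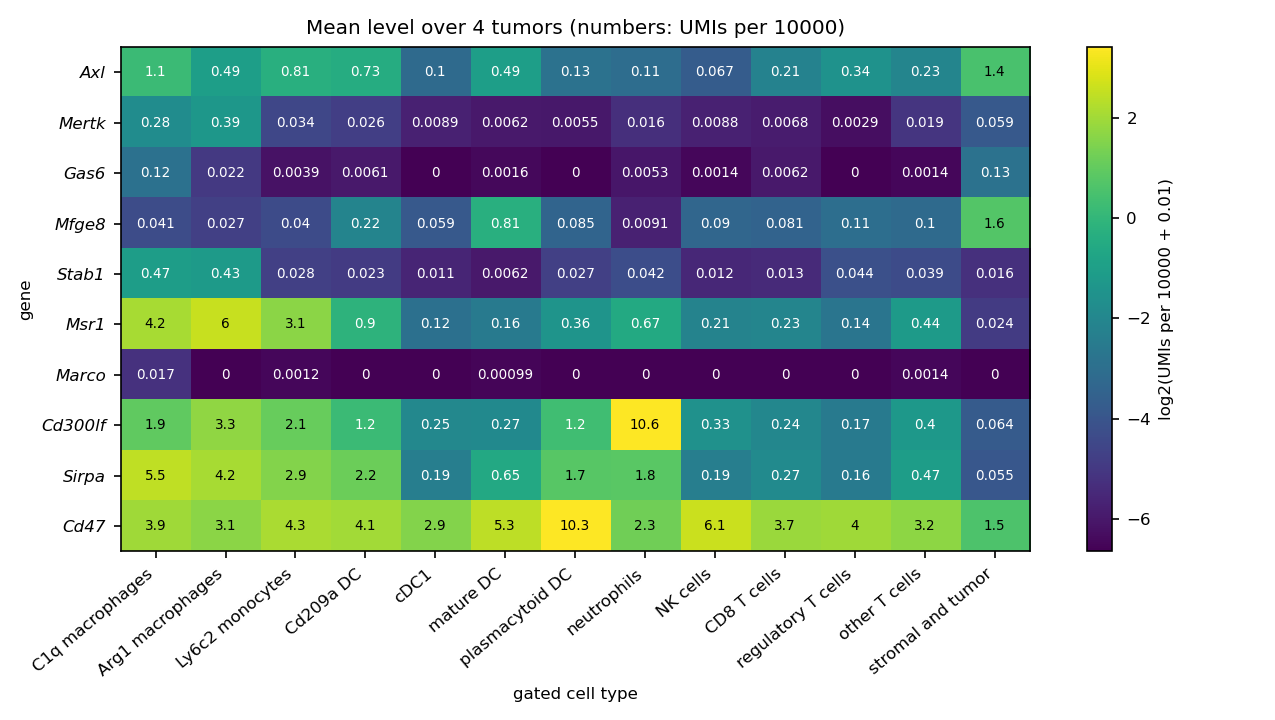
Mean level over 4 tumors of each of the 10 genes (rows) in each of 13 cell types (columns), with color on a log2 scale after adding 0.01 and the mean printed in each field. Mertk and Stab1 share the C1q and Arg1 macrophage columns, Cd300lf peaks in neutrophils, Cd47 in plasmacytoid dendritic cells and Mfge8 in stromal and tumor cells and in mature dendritic cells.

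The bridging ligand Gas6 (chr8:13465374-13494490, minus strand) gave 332 UMIs in 141 cells of the whole series. C1q macrophages held 94 of these at 0.107, 0.276, 0.0165 and 0.0940 UMIs per 10000. Stromal and tumor cells averaged 0.128 ± 0.176 (SD, n = 4), with 0.0235, 0.383, 0 and 0.107, but 110 of their 111 UMIs came from 5 cells and 69 from a single cell. Without the 5 highest cells, an alternative chosen after the data were seen, the stromal level was 0.00131 and C1q macrophages ranked first. Arg1 macrophages had 0.0880 in the control tumor of run 1, from 9 UMIs, and 0 in the other 3 tumors, and overlapped C1q macrophages. The remaining types were at 0.0184 or less in every tumor, with no UMI at this depth in cDC1, plasmacytoid dendritic cells and regulatory T cells. Gas6 overlaps Tmem255b on the opposite strand.

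Within C1q macrophages, 39 cells had Gas6. Gas6 and Stab1 were detected together in 19 cells against 5.39 if unrelated, and Gas6 and Mertk in 13 against 5.81. With Axl, the other Gas6 receptor shown here, the count was 17 against 14.6, and with Cd300lf it was 17 against 23.4. These counts were not corrected for depth either.

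Mfge8 (chr7:79133768-79149060, minus strand) was found mainly in stromal and dendritic cells. Stromal and tumor cells had 1.37, 1.85, 1.27 and 2.0 UMIs per 10000 and held 45.1% of all Mfge8 UMIs. Mature dendritic cells followed at 0.792, 1.02, 0.945 and 0.480, then Cd209a dendritic cells at 0.242, 0.232, 0.255 and 0.162, and each of these 3 types was apart from the next. C1q macrophages had only 0.0388, 0.0740, 0.0494 and 0. The genes most like Mfge8 were 2200002D01Rik (0.925), Prnp and Igfbp4.

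Among the scavenger receptors, Msr1 (chr8:39581685-39642673, minus strand) marked the monocyte and macrophage types as a whole. Arg1 macrophages had 4.88, 5.93, 5.49 and 7.57 UMIs per 10000, the highest type in every tumor, C1q macrophages 3.15, 4.27, 4.05 and 5.45, and Ly6c2 monocytes 2.99, 3.85, 2.64 and 3.03. Neighbors in this order overlapped, but Ly6c2 monocytes were apart from Cd209a dendritic cells at 0.708 to 1.06.

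Marco (chr1:120474538-120505024, minus strand) was rare, with 97 UMIs in 12 cells, of which 65 were in 1 cell and 74 in cells with mixed lineage markers. The control tumor of run 1 held 87 of the UMIs, the other control tumor 9 and the Lyve1CreCsf1rfl/fl tumors 0 and 1. Only 3 C1q macrophages had a Marco UMI, so no Marco-positive type could be described at this depth, and Marco did not pass the count filter of any comparison of types or genotypes over all 4 tumors.

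Cd300lf (chr11:115116214-115133992, minus strand) was highest in neutrophils and next highest in Arg1 macrophages. Neutrophils had 7.67, 12.4, 9.66 and 12.6 UMIs per 10000 and held 47.9% of its UMIs. Arg1 macrophages followed at 2.86 to 3.75, and neither overlapped the type after it. Ly6c2 monocytes averaged 2.09 and C1q macrophages 1.90 ± 0.261 (SD, n = 4), and these overlapped. Its most similar gene was Cyp4f18 (0.963). Cd300lf overlaps Rab37 on the opposite strand.

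The inhibitory pair had different orders of cell types. Sirpa (chr2:129592835-129632228, plus strand) was at 5.19, 4.86, 5.73 and 6.09 UMIs per 10000 in C1q macrophages, the highest type in every tumor. Arg1 macrophages followed at 4.59, 4.24, 3.61 and 4.36, and Ly6c2 monocytes at 3.10, 2.95, 2.55 and 2.97, each apart from the next. Natural killer (NK) cells and T cells were at 0.118 to 0.708. Cd47 (chr16:49800533-49915010, plus strand) was found in every type and was highest in plasmacytoid dendritic cells, at 10.7, 10.3, 11.2 and 9.20, apart from NK cells at 5.63, 6.23, 5.95 and 6.60. Mature dendritic cells came next at 5.26 ± 0.397 (SD, n = 4), and apart from all types below them. C1q macrophages had 4.35, 4.01, 3.19 and 4.11 of Cd47, near the middle of the order. Neutrophils, at 2.11 to 2.52, and stromal and tumor cells, at 1.29 to 1.75, were lowest.

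**Figure D2:**
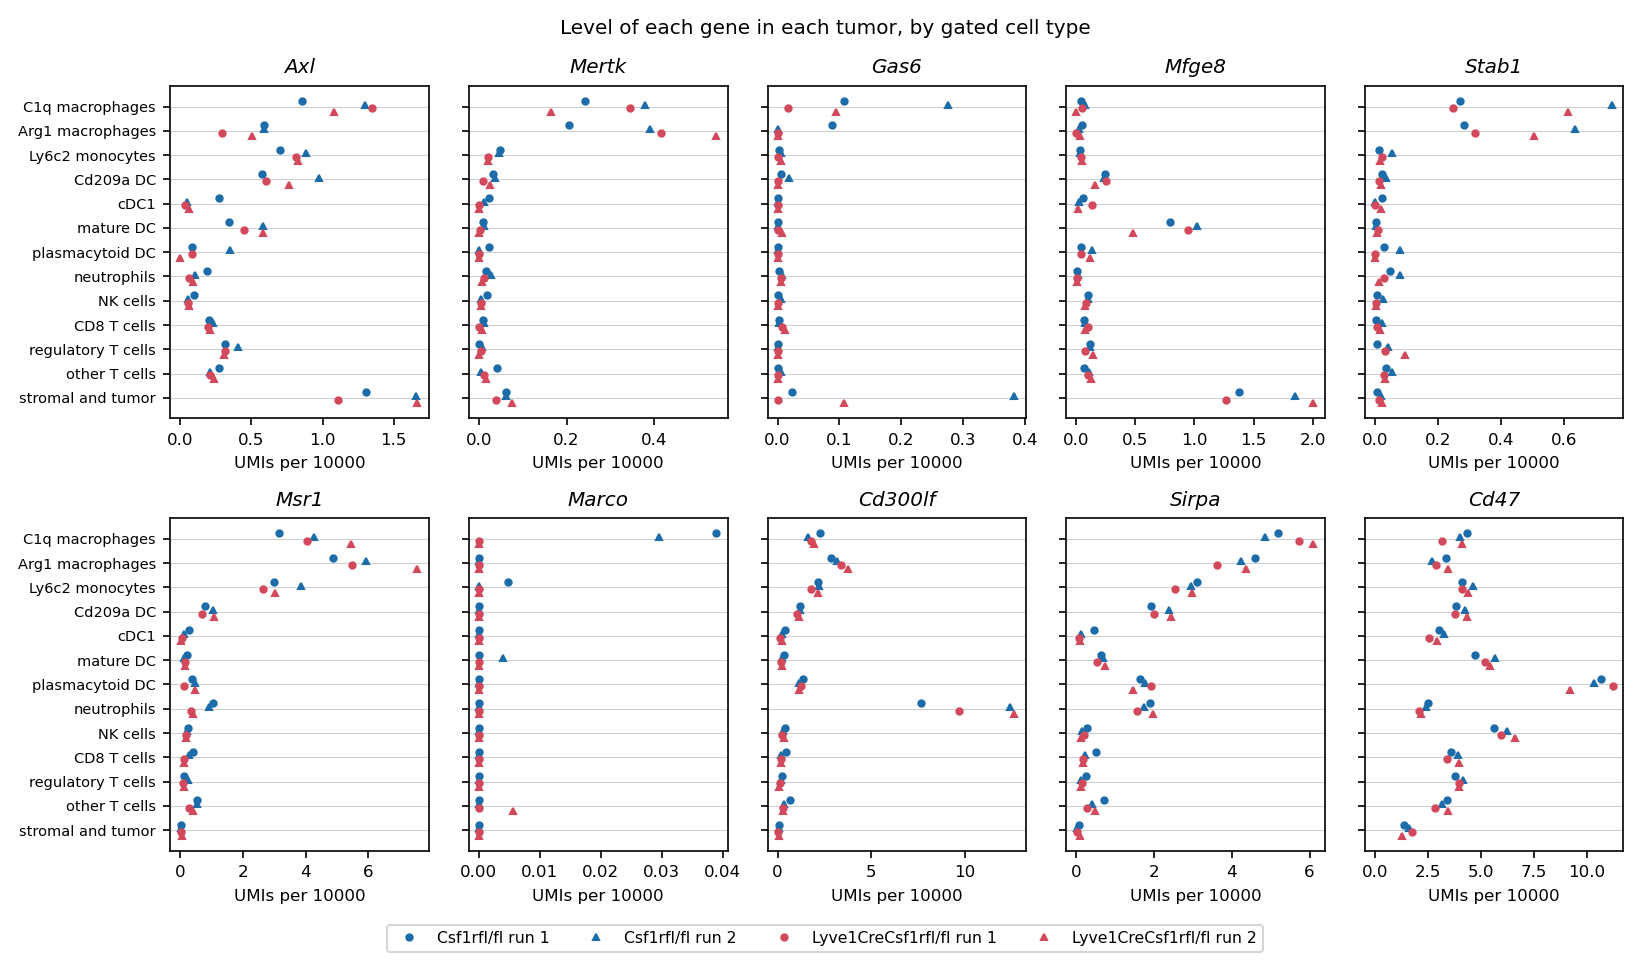
Level of each gene in UMIs per 10000 in each of 13 cell types, with 1 point per tumor and genotype shown by color. The Cd47 points of plasmacytoid dendritic cells lie above those of every other type, while the Gas6 points in stromal and tumor cells run from 0 to 0.383.

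The share of cells in which a gene is seen depends on depth, so every cell was thinned to 2000 UMIs and shallower cells were left out. Of 830 C1q macrophages kept (110 left out), 63.1% had a UMI of Sirpa (exact 95% interval 59.7 to 66.4), 50% of Msr1, 32.8% of Cd300lf, 18.8% of Axl (16.2 to 21.6), 6.27% of Mertk (4.71 to 8.13), 5.54% of Stab1 (4.09 to 7.32) and 1.81% of Gas6 (1.01 to 2.96). Unthinned, these shares were 88.4%, 71.6%, 60.0%, 37.4%, 14.9%, 13.8% and 4.15%. Such intervals cover counting error only.

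NK cells were taken as the type that should lack macrophage transcripts, and gave the background of free RNA in 1357 cells after thinning (236 left out). There the shares were 2.87% for Sirpa, 2.87% for Msr1, 5.90% for Cd300lf, 0.516% for Axl, 0.147% for Mertk, 0.147% for Stab1 and 0 of 1357 cells for Gas6, which allows a share of up to 0.221%. The median depth before thinning was 3820 UMIs in NK cells and 5220 in C1q macrophages. All 7 of these shares in C1q macrophages were above their NK background, whereas Marco (0.120% against 0) was not distinguishable from it at this depth. Mfge8 was seen in 0.361% of C1q macrophages (0.0746 to 1.05) and in 1.69% of NK cells (1.08 to 2.53), and Cd47 in 51.7% and 70.0%, so NK cells are no background for these genes. Without thinning, the commonest number of the 10 genes detected in the 940 C1q macrophages was 4, in 270 cells, and 13 cells had none. This count depends on depth and no background was computed for it.

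**Figure D3:**
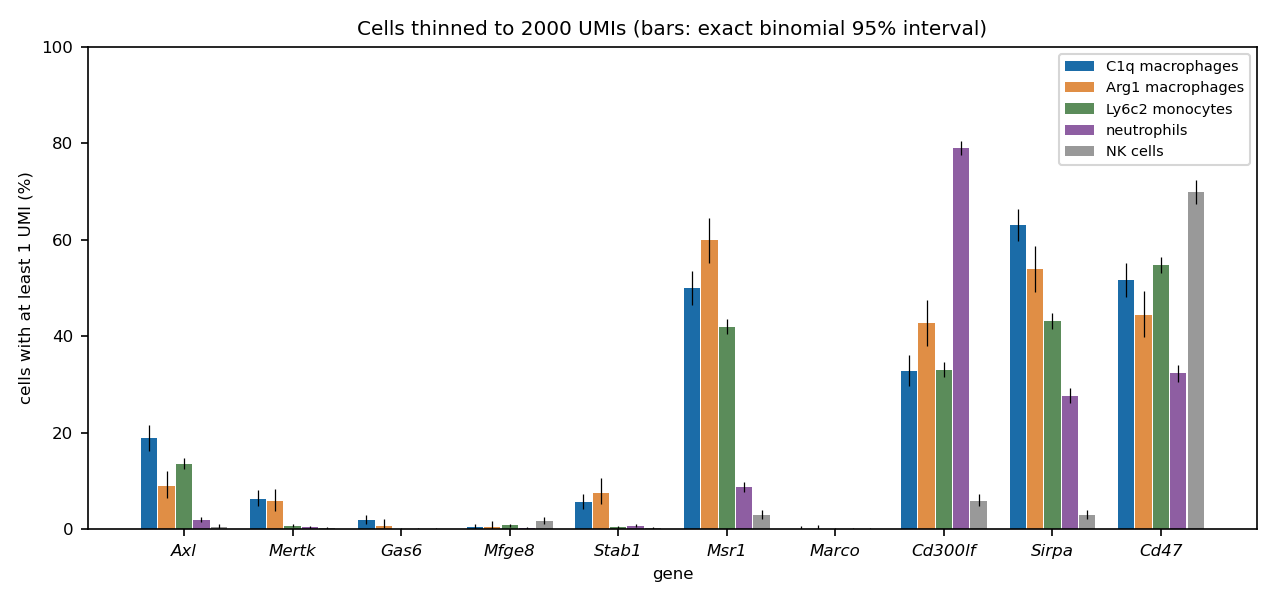
Share of cells with at least 1 UMI of each gene after thinning to 2000 UMIs, in C1q macrophages, Arg1 macrophages, Ly6c2 monocytes, neutrophils and NK cells, with exact 95% binomial intervals. Cd300lf reaches 79.0% of neutrophils, and Mertk and Stab1 stay near 0 outside both macrophage types.

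To ask how the macrophages differed from the monocytes and from other cells, UMIs were summed per tumor and type and fitted with the edgeR quasi-likelihood test, with tumor as covariate and Benjamini-Hochberg adjustment over 11833 genes. Marco was too low to enter, and the other 9 genes were tested. Between C1q macrophages and Ly6c2 monocytes 32.9% of all genes tested passed, 14.6% higher and 18.3% lower, and 5 of the 9 genes did, with a median log2 difference of 0.27 against -0.01 for all genes. Stab1 was higher in C1q macrophages by 3.8 ± 0.28 (log2 ± SE, adjusted p = 4.73e-16), Mertk by 2.77 ± 0.28 (adjusted p = 2.15e-11), Gas6 by 4.82 ± 0.69 (adjusted p = 3.86e-07) and Sirpa by 0.71 ± 0.18 (adjusted p = 0.00178). The Gas6 difference rests on 8 UMIs in Ly6c2 monocytes and 94 in C1q macrophages, 46 of these in 5 cells, so its size is poorly fixed. Cd47 was lower by a log2 of -0.33 ± 0.10 (adjusted p = 0.0062), which was lost without TMM factors, when types were taken from clusters and without the control tumor of run 2 (adjusted p = 0.275, 0.0587 and 0.065). Axl (0.27 ± 0.19), Msr1 (0.21 ± 0.21), Cd300lf (-0.36 ± 0.19) and Mfge8 (0.17 ± 0.41) did not pass, although Axl and Cd300lf did without the control tumor of run 1 (0.39 and -0.41, adjusted p = 0.0371 and 0.00275), Axl and Msr1 with types from clusters (0.47 and 0.37, adjusted p = 0.00366 and 0.0304) and Cd300lf without the low-count filter (-0.40, adjusted p = 0.00665).

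Between C1q and Arg1 macrophages 21.3% of genes passed, 10.7% higher and 10.6% lower, and 3 of the 9 did. Axl was higher in C1q macrophages by 1.05 ± 0.26 (edgeR, adjusted p = 0.00174), although without the Lyve1CreCsf1rfl/fl tumor of run 1 it was 0.79 and did not pass (adjusted p = 0.0613). Cd300lf was lower by -0.85 ± 0.20 (adjusted p = 0.0013), and this too missed the threshold without the control tumor of run 2 (-0.69, adjusted p = 0.0553). Cd47 passed narrowly at 0.28 ± 0.11 (adjusted p = 0.0454) and failed under 6 of the alternatives. Sirpa (0.31 ± 0.19, adjusted p = 0.271), although its levels were apart in these types, did not pass except without the low-count filter (adjusted p = 0.0453). Mertk (-0.33 ± 0.28), Stab1 (0.01 ± 0.26) and Mfge8 (0.57 ± 0.68) did not pass, nor did Msr1 (-0.57 ± 0.22, adjusted p = 0.053) or Gas6 (1.89 ± 0.76, adjusted p = 0.0719), and these last pair passed under 2 and 4 of the alternatives.

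Against neutrophils 61.9% of genes passed, 32.5% higher and 29.4% lower, and so did all 9: 7 higher and 2 lower in C1q macrophages. Mertk was higher by 3.01 ± 0.34, Axl by 2.25 ± 0.24, Stab1 by 2.16 ± 0.27 and Msr1 by 1.62 ± 0.22 on the log2 scale (edgeR, adjusted p at most 8.59e-09), and Cd300lf was lower by -3.59 ± 0.20 (adjusted p = 4.08e-22). Neutrophils carried the smallest TMM factors, a mean log2 of -0.94 against 0.11 in C1q macrophages, so a fitted difference from neutrophils is shifted by -1.05 on the log2 scale from that of the levels per 10000 UMIs. This shift turned Cd47, which was lower in C1q macrophages by -0.28 (adjusted p = 0.0125) in the fit and higher by 0.77 without TMM factors (adjusted p = 2.88e-10). The calls of Sirpa (0.54 ± 0.18), Mfge8 (1.32 ± 0.55) and Gas6 (3.5 ± 0.73) against neutrophils were each lost under 1 or more alternatives.

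A further pair of contrasts placed the genes among dendritic and lymphoid cells. In cDC1 against Cd209a dendritic cells 33.5% of genes passed, 15% higher and 18.5% lower, and 6 of the 9 genes were lower in cDC1: Sirpa by -3.52 ± 0.28, Axl by -2.84 ± 0.32, Msr1 by -2.78 ± 0.36, Cd300lf by -2.18 ± 0.26, Mfge8 by -2.14 ± 0.38 and Cd47 by -0.42 ± 0.10 (edgeR, adjusted p at most 0.000669). With types from clusters Msr1 no longer passed there (-0.18, adjusted p = 0.713), and Mertk, Gas6 and Stab1 reversed, as given below. Pooled over the tumors, the C1q macrophage markers summed to 0.703 in cDC1 and 3.5 in Cd209a dendritic cells. The Ly6c2 monocyte markers summed to 14.3 and 36.4. The gating itself used these lists, with a level of 12 on the C1q macrophage list for mixed cells. The part of the gates in the lower values of cDC1 was not tested. Mertk (-1.29 ± 0.77) and Stab1 (-1.6 ± 0.85) did not pass, and Gas6 had no UMI in cDC1. In T and NK types against myeloid types 76.3% passed, 40.6% higher and 35.7% lower, and 7 of the 9 were lower, from Sirpa (-3.08 ± 0.12) and Cd300lf (-2.72 ± 0.11) through Msr1 (-2.26 ± 0.14), Stab1 (-1.31 ± 0.29) and Axl (-1.28 ± 0.14) to Cd47 (-0.36 ± 0.04), the last of which was at 0.01 without TMM factors (adjusted p = 0.81). Mertk (-2.24 ± 0.37) lost its call without the control tumor of run 1 and with doublet calls removed. Mfge8 (0.13 ± 0.16) did not pass except without TMM factors (0.50, adjusted p = 0.00511), and Gas6, with no UMI in regulatory T cells, had no usable standard error in edgeR with the gated types. Gas6 was called lower with DESeq2 (-2.08 ± 0.78, adjusted p = 0.0109) and with types from clusters (-1.89 ± 0.70, adjusted p = 0.0128).

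Other genes of the pathway were counted from 6 lists, to be read against the 14.6% of all genes that were higher and the 18.3% that were lower in this contrast, with a median log2 difference of -0.01. Of 14 other phosphatidylserine receptors 10 were tested, and between C1q macrophages and Ly6c2 monocytes 4 were higher and 2 lower, with a list median of 0.66. Trem2, a lipid receptor, was higher by 1.39 ± 0.22 (adjusted p = 1.9e-06), as were Cd36, Cd300ld and Timd4, and Scarb1 and Havcr2 were lower. Of 8 bridging molecules and opsonins 3 were higher, namely C1qa, C1qb and C1qc, which had been used to gate the cells and are no result, and 2 were lower, among them Pros1, the other ligand of Mertk, at -0.94 ± 0.30 (adjusted p = 0.0118), and Thbs1. Of 12 genes of digestion and cholesterol efflux 4 were higher, Pparg by 2.75 ± 0.23 (adjusted p = 8.63e-14), Abca1 by 2.18 ± 0.24 (adjusted p = 3.42e-10), Nr1h3 by 1.68 ± 0.20 (adjusted p = 2.34e-09) and Abcg1 by 0.96 ± 0.15 (adjusted p = 6.77e-07). The other 3 calls of that list were lower, Abca7 by -1.38 ± 0.16 (adjusted p = 1.01e-09), Lamp2 by -0.68 ± 0.12 (adjusted p = 1.77e-05) and Nr1h2 by -0.39 ± 0.12 (adjusted p = 0.00923), and the list median was -0.13. Uptake machinery gave 1 higher (Itgb5) and 2 lower of 11 tested (Rac1 at -0.31 and Dock2 at -0.32), with a median of -0.09. Other scavenger receptors gave 1 higher (Cd68, a gate gene) and 1 lower (Olr1) of 5, with a median of -0.41. Inhibitors of uptake gave 1 higher (Pecam1) and 3 lower of 7 (Siglecg at -1.69, Cd24a at -1.43 and Pirb at -0.52), with a median of -0.16. Several of these calls did not hold against Arg1 macrophages, where 10.7% of all genes were higher and 10.6% lower. There Cd36 and Abca1 were lower in C1q macrophages, Scarb1 and Pros1 were higher, and Trem2, Cd300ld, Timd4 and Abcg1 were not called. Pparg and Nr1h3 were higher and Thbs1, Olr1, Siglecg and Cd24a lower in both contrasts. The highest genes of each list in C1q macrophages were Cd300ld (2.29 ± 0.182, SD, n = 4), Cd300a and Havcr2 among receptors, the C1q genes among opsonins, Cd68, Scarf1 and Colec12 among scavenger receptors, Rac1, Lrp1 and Dock2 in uptake, B2m, Ptpn6 and Pirb in inhibition, and Lamp1, Ucp2 and Lamp2 in digestion.

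The comparison of genotypes asked whether the genes changed where Lyve1-expressing cells lost Csf1r. Within the 13 cell types no call was made on any of the 10 genes at an adjusted p under 0.05 (edgeR quasi-likelihood test, n = 2 tumors per genotype), where 0.0107% of all tests over the 13 types passed. By type that share was 0.0164% in Arg1 macrophages, 0.0103% in Cd209a dendritic cells, 0.184% in plasmacytoid dendritic cells and 0 in neutrophils, NK cells, T cells, Ly6c2 monocytes and the remaining types other than C1q macrophages. Unadjusted p was under 0.05 for 10 of the 79 tests on these genes (12.7%), against 2.2% of all 111708 tests, and DESeq2 also made no call on them. Of these 10, 3 were in neutrophils, 2 in CD8 T cells, 2 in other T cells and 1 in regulatory T cells. All come from the same tumors. Those in CD8 and other T cells reversed with doublet calls removed, and Msr1 in neutrophils shrank with types from clusters, as given below. In C1q macrophages, where 0.0122% of 8191 genes passed, 8 of the 10 genes were tested and their median log2 change was -0.13 against 0.00 for all genes. The self-test on simulated counts for this comparison recovered 82% of 4-fold and 19% of 2-fold changes over 8191 genes, so changes of 2-fold would mostly be missed. The simulation gave every gene the same spread between tumors, a dispersion of 0.0344, and changed 200 genes above a count floor. Its shares need not hold for rarer or more variable genes.

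No change of the receptors was detectable in C1q macrophages of the Lyve1CreCsf1rfl/fl tumors. From the levels given above, log2 changes (Lyve1CreCsf1rfl/fl minus control) were 0.21 ± 0.27 for Axl, -0.19 ± 0.40 for Mertk, -0.27 ± 0.47 for Stab1, 0.35 ± 0.25 for Msr1, -0.07 ± 0.26 for Cd300lf, 0.23 ± 0.24 for Sirpa and -0.21 ± 0.24 for Cd47, each with an adjusted p of 1 in edgeR. Leaving out single tumors moved Mertk between -0.97 and 0.24, Stab1 between -0.92 and 0.51, Axl between -0.06 and 0.44 and Cd300lf between -0.35 and 0.24, so the direction of these 4 was not fixed. The groups overlapped for 6 of these 7 genes. Sirpa was the exception, with 5.19 and 4.86 in control and 5.73 and 6.09 in Lyve1CreCsf1rfl/fl C1q macrophages. How many of all genes lacked overlap was not computed, so these counts have no background.

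Gas6 had the largest change of the 8 genes tested in C1q macrophages. Its levels of 0.107 and 0.276 in control and 0.0165 and 0.0940 in Lyve1CreCsf1rfl/fl tumors did not overlap, the log2 change was -1.88 ± 0.75, and the unadjusted p was 0.0249 with an adjusted p of 1 in edgeR. They come from 33 and 56 UMIs in control and 1 and 4 in Lyve1CreCsf1rfl/fl tumors. With 46 of the 94 UMIs in 5 cells, the level rests on few cells, and the log2 change was -1.04 without the Lyve1CreCsf1rfl/fl tumor of run 1 and -3.36 without that of run 2. Folr2, a marker of resident macrophages, moved alongside at 0.230 and 0.365 in control and 0.0329 and 0.188 in Lyve1CreCsf1rfl/fl C1q macrophages, and its part in the Gas6 difference was not tested.

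Mertk values had both signs among the other myeloid types, with no call and no test of a difference between these types. In Arg1 macrophages its levels of 0.205 and 0.390 in control and 0.415 and 0.541 in Lyve1CreCsf1rfl/fl tumors did not overlap, at a log2 change of 0.71 ± 0.41 (unadjusted p = 0.105, edgeR adjusted p = 1). In Ly6c2 monocytes they were 0.0486 and 0.0448 against 0.0214 and 0.0208, from 31, 28, 8 and 7 UMIs (-1.15 ± 0.44, unadjusted p = 0.0263, edgeR adjusted p = 1), and in Cd209a dendritic cells 0.0333 and 0.0368 against 0.00943 and 0.0253 (-1.11 ± 0.60, unadjusted p = 0.0944, adjusted p = 1). The C1q macrophage markers in Ly6c2 monocytes were at 4.33 and 3.69 against 3.29 and 3.16, and in Cd209a dendritic cells at 4.24 and 3.51 against 2.70 and 3.50, with none at 0 over all 4 tumors, and their part in the Mertk differences was not tested. Axl in Arg1 macrophages was at 0.586 and 0.585 against 0.293 and 0.504 (-0.59 ± 0.38, adjusted p = 1) and Cd300lf at 2.86 and 3.15 against 3.37 and 3.75 (0.26 ± 0.29, adjusted p = 1), again without overlap. The 8 neutrophil markers in these Arg1 macrophages were at 8.24 and 8.45 in control and 15.0 and 12.2 in Lyve1CreCsf1rfl/fl tumors, and their part in the Cd300lf difference was not tested. The C1q macrophage markers there were at 11.9 and 9.48 against 6.37 and 10.2, which overlapped, and their part in the Axl difference was not tested.

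In neutrophils Msr1 had 1.03 and 0.901 UMIs per 10000 in control and 0.328 and 0.417 in Lyve1CreCsf1rfl/fl tumors, so the groups did not overlap. Its log2 change was -1.28 ± 0.28, with an unadjusted p of 0.00051 and an adjusted p of 0.943 in edgeR. With the Chromium run as a block it passed (adjusted p = 0.0179) as 1 of 8 genes, where 0 of 9241 passed unblocked. With types from clusters instead of gates the change was -0.06 ± 0.30. Stab1 (-1.20 ± 0.51) and Axl (-0.88 ± 0.38) were lower alongside at unadjusted p of 0.0322 and 0.0357. Marker lists of other cells in these neutrophils summed to 1.50 and 1.06 in control and 1.03 and 0.937 in Lyve1CreCsf1rfl/fl tumors for the 6 C1q macrophage genes, to 38.4 and 22.0 against 22.1 and 24.6 for the 6 Ly6c2 monocyte genes and to 10.3 and 13.5 against 11.6 and 15.4 for the 6 Arg1 macrophage genes, with no gene of these lists at 0 over all 4 tumors, and their part in the Msr1 difference was not tested.

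Gas6 in stromal and tumor cells was at -1.82 ± 1.16 (edgeR, adjusted p = 1). It passed with the run as a block, at -2.06 ± 0.41 (adjusted p = 0.00504), where the block took the genes called there from 0 to 41, and also without the control tumor of run 1 (-2.87, adjusted p = 2.18e-09) and without the Lyve1CreCsf1rfl/fl tumor of run 2 (-8.71, adjusted p = 2.73e-11), which leaves only a Lyve1CreCsf1rfl/fl tumor with no Gas6 UMI, so this last value is no size of change. Without the control tumor of run 2, which held the highest cell, the change was 0.99, and without the Lyve1CreCsf1rfl/fl tumor of run 1 it was -0.83. These are the 111 UMIs of which 110 came from 5 cells.

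Among T cells, Msr1 had 0.400 and 0.266 in control and 0.116 and 0.130 in Lyve1CreCsf1rfl/fl CD8 T cells (log2 -1.48 ± 0.31, unadjusted p = 0.00149, edgeR adjusted p = 0.999), and Sirpa had 0.503 and 0.233 against 0.177 and 0.180 (-1.11 ± 0.41, adjusted p = 0.999). The 6 C1q macrophage markers moved with them, at 0.920 and 0.664 in control and 0.391 and 0.380 in Lyve1CreCsf1rfl/fl CD8 T cells. So did the 6 Arg1 macrophage markers, at 2.53 and 2.03 against 0.864 and 0.978. The 6 Ly6c2 monocyte markers, at 24.2 and 16.1 against 16.4 and 15.6, overlapped. The 8 neutrophil markers, at 6.36 and 3.51 against 4.76 and 3.4, overlapped too. No marker was at 0 over all 4 tumors, and the part of these lists in the differences was not tested. With doublet calls removed the changes were 0.05 for Msr1 and 0.05 for Sirpa. Msr1 was at -0.96 ± 0.38 in regulatory T cells and at -0.64 ± 0.25 in other T cells, and Cd300lf at -0.73 ± 0.33 in other T cells (unadjusted p = 0.0322, 0.0239 and 0.0496, each with an edgeR adjusted p of 1). With doublet calls removed the values in other T cells were 0.92 for Msr1 and 0.12 for Cd300lf. The markers in other T cells summed to 1.2 and 0.573 in control and 0.428 and 0.6 in Lyve1CreCsf1rfl/fl tumors for the C1q macrophage list and to 4.13 and 1.88 against 1.51 and 2.47 for the Arg1 macrophage list. In regulatory T cells the C1q macrophage list summed to 0.401 and 0.435 against 0.337 and 0.355, and the Arg1 macrophage list to 0.733 and 0.65 against 0.646 and 0.63. The Ly6c2 monocyte and neutrophil lists overlapped between the genotypes in both of these types. Their part in these differences was not tested. Without the control tumor of run 2, Msr1 and Sirpa each passed in CD8 T cells (adjusted p = 0.000336 and 0.000713), that is, against the control tumor of run 1 alone.

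**Figure D4:**
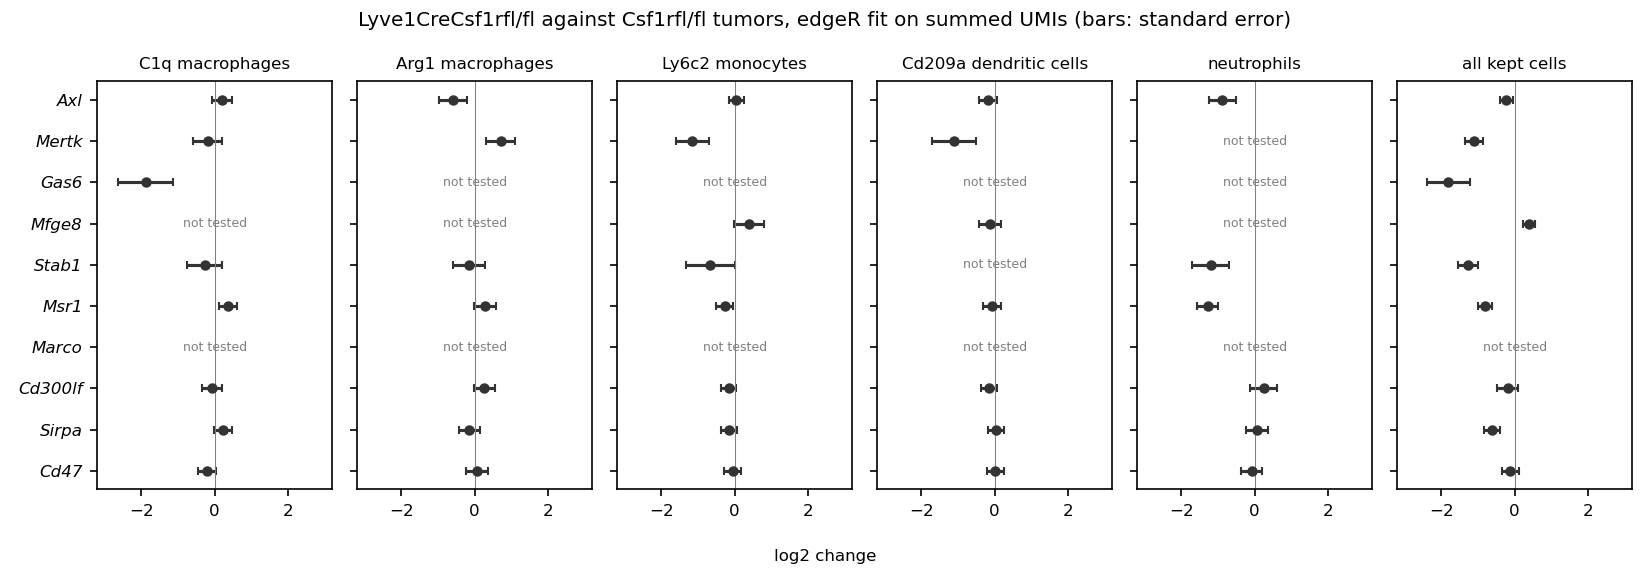
Log2 change of each tested gene between genotypes (Lyve1CreCsf1rfl/fl minus control) ± SE from edgeR in C1q macrophages, Arg1 macrophages, Ly6c2 monocytes, Cd209a dendritic cells, neutrophils and all kept cells. Gas6 lies at -1.88 in C1q macrophages, and over all kept cells 8 of 9 genes lie below 0.

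Msr1 had the smallest p among the 10 genes for a difference in genotype effect between cell types. In the fit of both types together, its effect in C1q macrophages exceeded that in neutrophils by 1.60 ± 0.27 log2 (unadjusted p = 3.19e-05, edgeR adjusted p = 0.161), where 0% of 10058 genes passed. It passed with DESeq2, without the low-count filter and without TMM factors (adjusted p = 0.05, 0.000273 and 9.77e-05). The difference in genotype effect was not fitted with types from clusters, doublet calls removed, the stricter hashtag ratio or the run as a block. With types from clusters the Msr1 change in neutrophils alone was much smaller, as given above. Against Ly6c2 monocytes, where 0.0289% of 10392 genes passed, the difference was 0.63 ± 0.14 (adjusted p = 0.285), and without the filter it passed (adjusted p = 0.0312). In each run Msr1 was higher in the Lyve1CreCsf1rfl/fl than in the control C1q macrophages and lower in the neutrophils.

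Summed over all kept cells, none of the genes passed in the comparison of genotypes (0% of 14731 genes did, edgeR). Mertk was at 0.0612 and 0.0609 in control and 0.0305 and 0.0274 in Lyve1CreCsf1rfl/fl tumors, a log2 change of -1.11 ± 0.25 (unadjusted p = 0.00285, adjusted p = 0.913). Stab1 was at 0.0638 and 0.112 against 0.0324 and 0.0426 (-1.26 ± 0.27, adjusted p = 0.857), and Msr1 at 1.27 and 1.54 against 0.729 and 0.927 (-0.81 ± 0.20, adjusted p = 1). Gas6 changed by -1.81 ± 0.58 and Sirpa by -0.60 ± 0.22, whereas Mfge8 was higher by 0.40 ± 0.17. In none of these 6 did the groups overlap. The share of all genes without overlap was not computed, so this count has no background. With 2 tumors per genotype, groups can separate without any effect of genotype. Axl (-0.23 ± 0.18), Cd300lf (-0.19 ± 0.28) and Cd47 (-0.11 ± 0.23) overlapped.

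Over all kept cells fewer cells of a type and less RNA per cell cannot be told apart. The lymphocyte clusters that the study removed, specific to the Lyve1CreCsf1rfl/fl tumor of run 2, count in neither the levels nor the shares. C1q macrophages were 5.28% and 3.44% of control cells and 1.92% and 1.57% of Lyve1CreCsf1rfl/fl cells, and Arg1 macrophages 2.44% and 2.20% against 1.41% and 1.53%. Within C1q macrophages the Mertk, Stab1 and Msr1 levels of the genotypes overlapped, and within Ly6c2 monocytes and Arg1 macrophages those of Mertk did not, as given above. Without the low-count filter Marco, Mertk, Gas6 and Stab1 passed over all kept cells, without the Lyve1CreCsf1rfl/fl tumor of run 2 Marco, Gas6 and Stab1 did, and without that of run 1 Marco alone. Without TMM factors Gas6 passed. DESeq2 called none of the 10.

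Of the other pathway genes, the genotype test passed only for C1qa, C1qb and C1qc in plasmacytoid dendritic cells, where 0.184% of 4895 genes passed, 9 in all. C1qa was at 1.21 and 0.644 in control and 0.0821 and 0 in Lyve1CreCsf1rfl/fl plasmacytoid dendritic cells, from 166, 24, 2 and 0 UMIs (edgeR adjusted p = 0.000965), C1qb at 1.12 and 0.644 against 0.123 and 0.0958 (adjusted p = 0.00194) and C1qc at 0.838 and 0.349 against 0 and 0.0240 (adjusted p = 0.00204). The groups did not overlap for any of the 3. All 3 calls were lost with DESeq2 (adjusted p of 0.0575 to 0.742), with doublet calls removed, where 1 gene was called in all, and with types from clusters, where none was (adjusted p of 0.074 to 0.162), and without the control tumor of run 1 C1qa alone passed (adjusted p = 0.00977). These genes define the C1q macrophage gate, and the whole list of 6 summed to 5.27 and 2.23 in control and 0.575 and 0.838 in Lyve1CreCsf1rfl/fl plasmacytoid dendritic cells, with no gene at 0 over all 4 tumors. Whether RNA of other cells contributed was not tested.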

How the data were processed

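Single-cell RNA of sorted CD45+ tumor cells was measured with Chromium 3′ v2 chemistry. The authors aligned reads to mm10 and counted UMIs with Cell Ranger 6.0.1, and the deposited RNA and hashtag tables hold raw counts per barcode. A further table deposited by the authors holds SCTransform-corrected count scores (Seurat) and was used only for the names of the cells kept. A table of names pairs hashtags with tumors.

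Each kept cell was given to the tumor with the higher hashtag of its run after a centered log-ratio transform, and the raw hashtag counts gave no or another tumor for 86 cells. The study's own cell annotation was not used here, and types were rebuilt by gating marker sums per 10000 UMIs (24 for C1q macrophages and for Arg1 macrophages, 48 for Ly6c2 monocytes, 100 for neutrophils), so they may differ from the study's. Mixed (2783) and unassigned (1885) cells stayed out of the types. Scrublet called 21.3% and 12.8% of cells doublets in runs 1 and 2, at an expected rate of 0.2, and these were kept in the main analysis. UMIs were summed per tumor and type and tested with the edgeR 4.0.16 quasi-likelihood test (filterByExpr, TMM), with DESeq2 1.42.0 as an alternative (R 4.3.3, scanpy 1.11.5). Adjusted p-values are Benjamini-Hochberg values over all genes tested, with a threshold of 0.05. Likeness of patterns was the Pearson correlation of log2(UMIs per 10000 + 0.1) among genes at 0.5 or more in a type of every tumor and is given for some of the genes only. Shares of cells were computed after thinning to 2000 UMIs.

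Runs pair the tumors, since the labels give each run 1 replicate number and both genotypes, and deviations of tumors of a run from their group means correlated at 0.191 to 0.386 over genes in the 13 types and at 0.24 over all kept cells. The fits were tested on simulated data with 200 changed genes. Every gene was given the same spread between tumors, and only genes above a count floor were changed. The shares recovered need not hold for rarer or more variable genes. For C1q macrophages against Ly6c2 monocytes 97% of 4-fold and 79% of 2-fold changes were recovered among 11833 genes, and for the genotype effect between these types 82% and 48% among 10392 genes.

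All 10 genes are counted in every comparison. Within cell types other than C1q macrophages the genotype values of single genes are given where the unadjusted p was under 0.05 or, chosen after the values were seen, where the groups did not overlap, and not for every such gene. The share of all genes whose groups did not overlap was not computed for any type. Of the lists of other pathway genes, those passing the genotype test and up to 3 per list with the highest level in C1q macrophages are named. Other list members in the comparisons with Ly6c2 monocytes and with Arg1 macrophages were named after their values were seen. The genes and lists were chosen with earlier results of these data known. Gene positions are from GENCODE vM21 (mm10) and promoter sequences from RefSeq. Alternatives were DESeq2, no low-count filter, leaving out each tumor, hashtags at least 3 times the other, doublet calls removed, types from 25 clusters, the run as a replicate block, no tumor covariate, other thinning, means over cells and, added after the data were seen, no TMM factors and levels without the 5 highest cells.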

Additional observations from a re-analysis of the deposited data

Results flagged for a closer look

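Sirpa met the criterion of a genotype difference running in opposite directions in different cell types, without a test of that difference. Every Lyve1CreCsf1rfl/fl sample was higher than every control sample in C1q macrophages, a log2 ratio of means of 0.233, and lower in cDC1, where the ratio was -1.64 (levels of 0.455 and 0.115 in control and 0.0836 and 0.0996 in Lyve1CreCsf1rfl/fl tumors). The ratios differed by 1.87. In CD8 T cells the Sirpa ratio was -1.05, a difference of 1.28 from C1q macrophages. The 6 C1q macrophage markers moved with it in cDC1, at 1.95 and 0.453 in control and 0.134 and 0.0797 in Lyve1CreCsf1rfl/fl tumors (C1qa alone at 0.338 and 0.0665 against 0.0167 and 0). So did the Arg1 macrophage markers, at 2.05 and 1.58 against 1.2 and 1.41. The Ly6c2 monocyte markers, at 21.5 and 12.6 against 9.65 and 13.1, overlapped. The neutrophil markers, at 2.82 and 2.02 against 2.68 and 2.39, overlapped too. The part of these lists in the Sirpa difference was not tested. The cDC1 value rests mostly on the control tumor of run 1, and in CD8 T cells the change in the fit was 0.05 with doublet calls removed. Neither difference was tested, and the share of all genes meeting this criterion was not computed.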

How the results depend on the processing

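Most results kept direction and call. Of 44 values compared between cell types, recomputed 484 times, 430 kept both, 27 lost the call, 13 gained it and 14 reversed. Of 28 genotype values, none of which had a call to lose, recomputed 293 times, 261 kept direction and stayed without a call. A further 15 gained a call and 17 reversed, and these reversals touched 10 of the 28 values.

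Within cell types the count of calls on the 10 genes between genotypes, 0, became 2 without the low-count filter (Sirpa and Msr1 in CD8 T cells), 2 with the replicate block by run (Msr1 in neutrophils, Gas6 in stromal and tumor cells) and 0 to 5 when single tumors were left out. The 5 arose without the control tumor of run 2 (Sirpa in cDC1, Sirpa, Msr1 and Cd300lf in CD8 T cells, Cd300lf in other T cells), and Gas6 in stromal and tumor cells passed without the control tumor of run 1 or the Lyve1CreCsf1rfl/fl tumor of run 2. The replicate block changed no other call on these genes, although it raised the genes called in C1q macrophages from 1 to 21. Over all kept cells the count of 0 became 4 without the filter, 1 without TMM factors and 0 to 3 with single tumors left out. Between C1q and Arg1 macrophages the count of 3 became 5 without the filter and ran from 1 (without the control tumor of run 2) to 4. For the difference in genotype effect, the count of 0 became 1 against Ly6c2 monocytes without the filter, and 1 against neutrophils without the filter, with DESeq2 and without TMM factors, with 0 to 1 when single tumors were left out. Neighboring types apart rose from 20 to between 23 and 34 with single tumors left out, the highest without the control tumor of run 1, where fewer tumors give narrower ranges.

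The reversals were as follows, and none of the genotype changes had passed in the fit with the filter, TMM factors and no block. In C1q macrophages the log2 genotype change with single tumors left out ran from -0.973 to 0.241 for Mertk (0.0641 without the control tumor of run 2, 0.241 without the Lyve1CreCsf1rfl/fl tumor of run 2), from -0.0582 (without the Lyve1CreCsf1rfl/fl tumor of run 1; -0.0269 without the control tumor of run 1) to 0.44 for Axl, from -0.355 to 0.239 for Cd300lf (the latter without the control tumor of run 1) and from -0.925 to 0.511 for Stab1 (0.511 without the control tumor of run 2, 0.235 without the Lyve1CreCsf1rfl/fl tumor of run 1). For Mertk it was 0.0215 with doublet calls removed and 0.0509 with types from clusters, where Cd300lf was at 0.217. Gas6 in stromal and tumor cells ran from -8.71 to 0.994 (without the control tumor of run 2), and Cd300lf in Arg1 macrophages was at -0.183 with types from clusters. With doublet calls removed the change became 0.0499 for Sirpa and 0.0502 for Msr1 in CD8 T cells, and 0.92 for Msr1 and 0.118 for Cd300lf in other T cells, and with types from clusters 0.162 for Sirpa in CD8 T cells. Between cell types, with types from clusters, Mertk became 0.193, Stab1 -0.405 and Mfge8 -0.534 against Arg1 macrophages, and Mertk 0.631, Gas6 0.992 and Stab1 0.182 in cDC1 against Cd209a dendritic cells. With doublet calls removed Mfge8 became -0.866 against Ly6c2 monocytes and -0.433 against Arg1 macrophages. Stab1 against Arg1 macrophages became -0.0504 with the stricter hashtag ratio and -0.0668 with DESeq2. With single tumors left out it ran from -0.0121 to 0.0567, and Mfge8 against Ly6c2 monocytes from -0.327 to 0.383, both lowest without the control tumor of run 2. Without TMM factors Cd47 became 0.766 against neutrophils and 0.0124 in T and NK against myeloid types. The causes were not tested, except that TMM factors alone differ in the last pair.

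Levels of Mertk, Stab1, Gas6 and Marco changed their highest type under at least 1 setting, Mertk and Stab1 only between C1q and Arg1 macrophages. Gas6 and Marco rest on few UMIs in few cells, and for the genotype effect between C1q macrophages and Ly6c2 monocytes 48% of simulated 2-fold changes were recovered.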
